A study of Mus musculus with 6 samples.

Results

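The ETS genes of the ELF, ESE and Spdef branches were followed by symbol. They are Elf1, Elf2 and Elf4 (ELF), Elf3, Elf5 and Ehf (ESE, epithelium-specific ETS) and Spdef. All 7 were among the 23420 genes counted, and all 7 passed the filter on low counts that left 13087 genes for testing. RNA was sequenced from mouse lacrimal gland epithelium at E14.5, cut from frozen sections by laser capture, in 3 Control and 3 Pea3 TKO libraries on a mixed strain background. The study gives the Control embryos of this comparison as Le-Cre, a transgene that drives Cre recombinase in the ectoderm of the ocular surface. The library titles call them WT. Its methods name as controls both Le-Cre mice and Le-Cre mice heterozygous for Pea3, Erm flox and Er81 flox. Which of these each Control library came from is not given. Pea3 TKO embryos carried the same Le-Cre with Pea3-/-, Erm fl/fl and Er81 fl/fl, so that Pea3 (Etv4) was absent from every cell whereas Erm (Etv5) and Er81 (Etv1) were deleted only where Cre was active. No source assigned libraries to embryos, and p-values therefore measure the spread between libraries, which may be technical.

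ETS factors share a DNA-binding domain that recognises a GGAA core, and many of them can occupy the same sites. The Pea3 branch is induced by FGF signalling at the tips of budding glands. The ESE genes and Spdef are expressed mainly in epithelia, where Elf3 and Ehf are tied to differentiation of surface and barrier epithelia, Elf5 to the secretory alveoli of the mammary gland and to trophoblast, and Spdef to goblet cells. Elf1, Elf2 and Elf4 are more broadly expressed and are best known from blood cells.

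Because the members bind the GGAA core, the sequence just upstream of a gene that changed and of one that did not is shown, each on the strand of its gene, with every GGAA, or TTCC on the other strand, in capitals. RefSeq promoters (GRCm38.p6) were matched for 6 of the 7 members (Elf1, Elf2, Elf3, Elf4, Elf5 and Spdef), and windows were cut to the bases upstream of every annotated start of the gene. The cut left a window for Elf1, Elf2, Elf3, Elf4 and Spdef and none for Elf5, whose RefSeq starts lie inside the annotated gene. The Elf3 window lies on the minus strand at chr1:135258569-135258722 and is overlapped by the antisense gene Gm26642. The Elf2 window lies on the minus strand at chr3:51340664-51340894.
Elf3: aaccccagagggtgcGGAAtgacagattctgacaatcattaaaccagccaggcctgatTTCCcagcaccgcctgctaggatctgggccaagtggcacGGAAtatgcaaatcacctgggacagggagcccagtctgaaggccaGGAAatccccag
Elf2: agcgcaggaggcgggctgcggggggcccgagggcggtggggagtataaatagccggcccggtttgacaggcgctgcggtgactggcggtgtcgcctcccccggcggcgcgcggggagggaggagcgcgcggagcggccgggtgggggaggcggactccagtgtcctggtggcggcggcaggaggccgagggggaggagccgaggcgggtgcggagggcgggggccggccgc
The 154 bases of Elf3 held 4 GGAA cores, and 10.7% of 32851 promoters cut to that length held as many or more. The 231 bases of Elf2 held 0, where 92.0% of promoters of that length held at least 1. The uncut 250 bases before that Elf2 start held 1. Another RefSeq start of Elf2, inside the gene, had 6 in its uncut 250 bases, and the cut windows of Elf1, Elf4 and Spdef, of 250, 250 and 246 bases, held 2, 6 and 4. The longer letters CCGGAAGT, on either strand, were in neither window and in 2.88% of 250-base windows. These counts describe letters only, and binding was not measured.

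Library totals ran from 14194775 to 17860140 counts, so that 3 counts correspond to between 0.169 and 0.210 counts per 1e6 (CPM). Of all genes tested, 25.0% passed an adjusted p of 0.05, 13.6% as higher and 11.3% as lower in Pea3 TKO. The 3 deleted genes fell in every Pea3 TKO library. Etv5 was at 961, 1010 and 1202 CPM in Control and 88.2, 152 and 177 in Pea3 TKO, Etv4 at 129 to 184 against 10.9 to 28.4, and Etv1 at 28.7 to 33.9 against 9.21 to 9.98. Reads outside a deleted exon are still counted, so these values do not give the completeness of deletion.
Several marker sums moved with the groups or set 1 library apart. Summed pan-epithelial markers were at 2786 to 3050 CPM in Control and 3865 to 4340 in Pea3 TKO, with 5 of 6 higher and Epcam not passing. Summed markers of conjunctival and epidermal surface epithelium were at 357, 499 and 1806 CPM in Control, highest in Control 1, and at 6226 to 9134 in Pea3 TKO, with 12 of 12 tested genes higher. Summed cornea markers were at 19.8 to 57.4 CPM in Control and 353 to 754 in Pea3 TKO, with 3 of 3 tested genes higher. Most of that sum was Clu, at 19.6 to 57.1 and 328 to 748 CPM. Mesenchymal markers were at 354 to 403 CPM in Control and at 736, 927 and 337 in Pea3 TKO 1, 2 and 3. That sum includes Foxc1, at 184 to 229 CPM in Control and 259 to 279 in Pea3 TKO, and Foxc2, at 102 to 132 and 61.1 to 81.4. Col1a1, Col1a2, Col3a1, Lum and Dcn were each higher in Pea3 TKO 1 and 2 than in any other library. Dcn was at 1.07, 0.249 and 4.42 CPM in Control and at 69.7, 73.6 and 2.41 in Pea3 TKO. The sum therefore understates how far these genes differed between libraries. Lacrimal bud markers were detected in every library, at 1576 to 1786 CPM in Control and 1218 to 1370 in Pea3 TKO. Y-linked RNA was at or under 0.445 CPM in Pea3 TKO 1 and 2 and at 136 CPM or more in the other libraries, so that sex and genotype are partly tied.

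The ESE genes rose in the Pea3 TKO bud, Elf3 most, then Ehf and, more weakly, Elf5. Elf1 of the ELF branch rose by a little under 1 on the log2 scale, whereas Elf2 stayed near its Control level and Elf4 and Spdef, both at low counts, did not pass the test. In total 4 of 7 members passed the adjusted p of 0.05, all as higher (57.1%, beside 13.6% of all genes tested as higher and 25.0% in either direction). The 3 Pea3 TKO libraries lay above all 3 Control libraries for 5 of 7 members, beside 22.5% of all genes, and below them for 0 of 7, beside 21.3% of all genes (43.9% in either direction). The median log2 fold change was 0.94 over the 7 members and 0.01 over all genes tested. In bulk RNA, more cells of a type and more RNA per cell cannot be told apart.

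**Figure D1:**
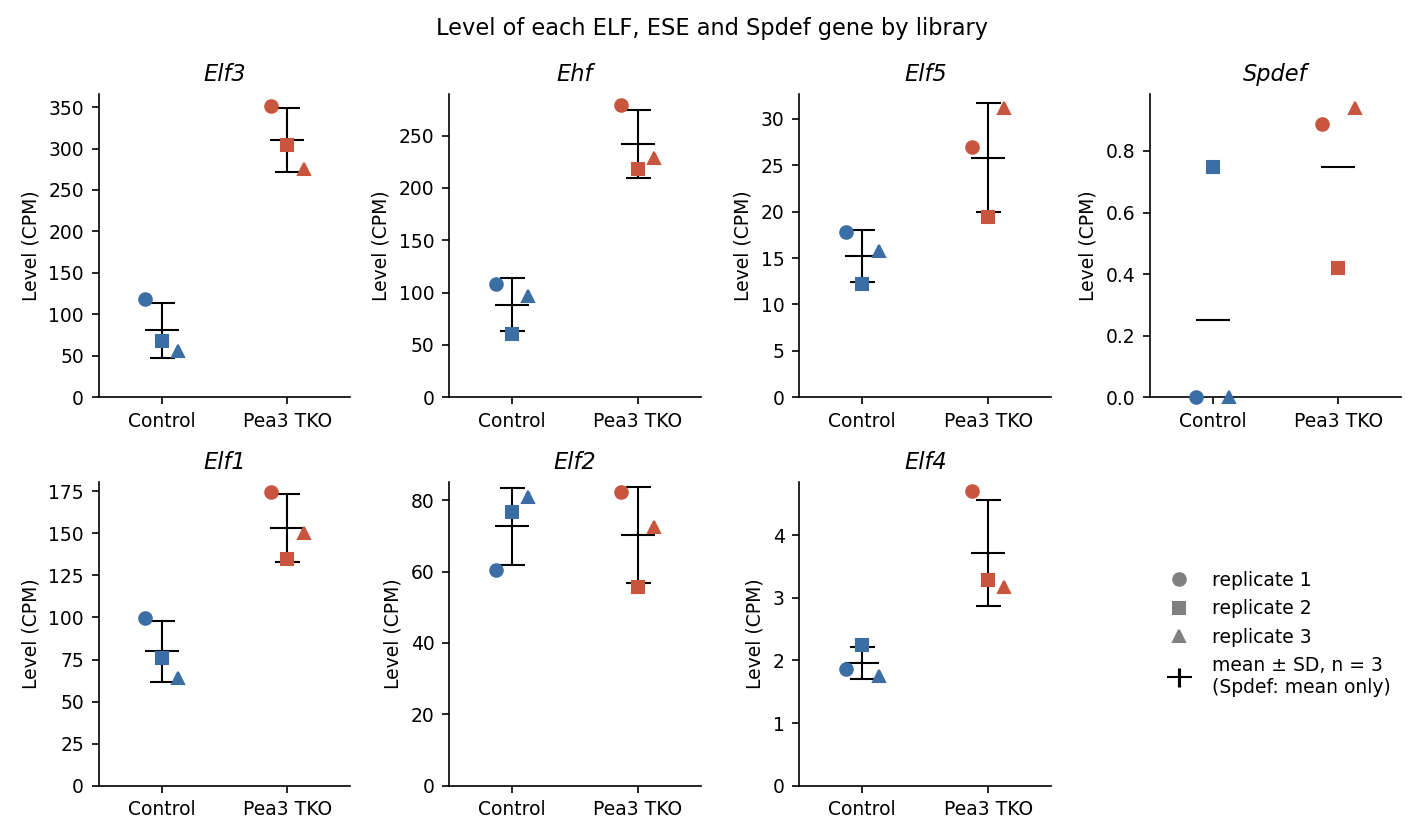
Level of each member in CPM by library, Control in blue and Pea3 TKO in red, with the group mean and SD of n = 3 (mean only for Spdef). Elf3, Ehf, Elf5, Elf1 and Elf4 do not overlap between groups, and Elf2 and Spdef do.

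Elf3 (ENSMUSG00000003051.13, GRCm38 chr1:135253575-135258568, minus strand), also called ESE1, is needed for maturation of the intestinal epithelium. It was at 118, 68.0 and 55.4 CPM in Control 1, 2 and 3 and at 351, 304 and 275 CPM in Pea3 TKO 1, 2 and 3. The groups were well apart, and Control 1 was the highest of its group. The means were 80.5 ± 33.2 and 309.9 ± 38.5 CPM (SD, n = 3), a log2 fold change of 1.94 (SE 0.25, adjusted p = 0.000765) or 3.85-fold with a 95% interval from 2.61 to 5.67. In the fits that left out 1 library the log2 fold change ran from 1.73 to 2.33, the upper value without Control 1. The antisense gene Gm26642 overlaps Elf3 exons and has no row in the tables.

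Ehf (ENSMUSG00000012350.15, chr2:103263433-103303278, minus strand), or ESE3, is known for its role in epidermal and corneal epithelial differentiation. It was at 108, 60.3 and 97.1 CPM in Control and at 279, 218 and 229 CPM in Pea3 TKO. The lowest Pea3 TKO library was still above the highest Control library. The means were 88.5 ± 25.0 and 242.0 ± 32.7 CPM (n = 3 each), with a log2 fold change of 1.45 (SE 0.21, adjusted p = 0.00118) or 2.74-fold (95% interval 1.99 to 3.76).

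Elf5 (ENSMUSG00000027186.14, chr2:103411688-103450989, plus strand), or ESE2, is the neighbour of Ehf, with 108409 bases and 0 protein-coding genes between them. Its level was lower than that of Ehf in every library, at 17.8, 12.2 and 15.7 CPM in Control and 26.9, 19.4 and 31.1 CPM in Pea3 TKO. The groups did not overlap, though Control 1 and Pea3 TKO 2 were close. The means were 15.2 ± 2.84 and 25.8 ± 5.92 CPM, and the log2 fold change of 0.76 (SE 0.25, adjusted p = 0.0470) lay just inside the threshold. Leaving out Control 2, Control 3, Pea3 TKO 1 or Pea3 TKO 3 took it out, with adjusted p from 0.106 to 0.153.

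Spdef (ENSMUSG00000024215.14, chr17:27714352-27728955, minus strand) drives goblet cell differentiation in gut and airway and in the conjunctiva. It had 0, 12 and 0 counts in Control 1, 2 and 3 and 14, 6 and 16 in Pea3 TKO, or up to 0.748 and 0.940 CPM. The groups overlapped, since Control 2 had more counts than Pea3 TKO 2. The log2 fold change of 1.57 had a 95% interval from −1.39 to 4.54 (adjusted p = 0.429), which holds changes in both directions. Without Control 2 the Control libraries were both at 0, and no fold is given there (adjusted p = 0.0622).

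Elf1 (ENSMUSG00000036461.16, chr14:79481194-79582494, plus strand) is an activator studied mainly in lymphoid cells and endothelium. It was at 99.5, 75.7 and 64.1 CPM in Control and at 175, 135 and 150.1 CPM in Pea3 TKO. All Pea3 TKO libraries were above all Control libraries. The means were 79.8 ± 18.0 and 153 ± 20.1 CPM, with a log2 fold change of 0.94 (SE 0.17, adjusted p = 0.00444) or 1.92-fold (95% interval 1.47 to 2.51). Exons of Elf1 overlap those of Wbp4 on the opposite strand, and whether counting used strand is not given in the sources used here. Wbp4 itself had a log2 fold change of −0.24 (adjusted p = 0.216).

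Elf2 (ENSMUSG00000037174.18, chr3:51252720-51340663, minus strand), a ubiquitous relative of Elf1, was at 60.4, 76.7 and 80.9 CPM in Control and at 82.4, 55.7 and 72.5 CPM in Pea3 TKO. The groups overlapped fully, and the lowest and the highest library were both Pea3 TKO. The means of 72.7 ± 10.8 and 70.2 ± 13.5 CPM gave a log2 fold change of −0.05 (SE 0.18, adjusted p = 0.873). The 95% interval from 0.735-fold to 1.27-fold leaves room for a modest change in either direction. Elf2 exons overlap 4930577N17Rik on the opposite strand.

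Elf4 (ENSMUSG00000031103.12, chrX:48411046-48463132, minus strand), known from natural killer and CD8+ T cells, had 33, 36 and 27 counts in Control and 74, 47 and 54 in Pea3 TKO. These correspond to 1.86, 2.24 and 1.76 CPM against 4.70, 3.29 and 3.17 CPM. The groups did not overlap, but the log2 fold change of 0.93 had a SE of 0.51 and did not pass (adjusted p = 0.215, 95% interval 0.864-fold to 4.18-fold). Elf4 is X-linked, and the library with its highest level, Pea3 TKO 1, was 1 of the 2 without Y-linked RNA. The other, Pea3 TKO 2, at 3.29 CPM was near Pea3 TKO 3, which had Y-linked RNA, at 3.17 CPM. Immune markers summed to 1.06 to 31.3 CPM in Control and to 1.64 to 31.8 CPM in Pea3 TKO. That list holds mostly genes of myeloid cells and no marker particular to T or natural killer cells. Whether such cells held any Elf1 or Elf4 RNA was not tested. Ptprc (CD45) was at or under 0.520 CPM in every library, whereas Csf1r reached 11.0 CPM in Control 1 and Cd68 6.92 CPM in Pea3 TKO 1.

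Levels of different genes were compared per kilobase of exon, with the exons of all annotated transcripts merged. That length was 2.217 kb for Elf3, 5.576 for Ehf and 6.737 for Elf1, and may differ from that of the RNA present. The order in Control and the size of ratios between genes depend on it. In CPM, the Control means were 88.5 for Ehf, 80.5 for Elf3, 79.8 for Elf1 and 72.7 for Elf2. In Control, Elf3 was highest at a mean of 36.3 CPM per kb, then Ehf at 15.9, Elf1 at 11.8, Elf2 at 7.60, Elf5 at 2.59, Elf4 at 0.318 and Spdef at 0.108. Ehf and Elf1 overlapped, as did Elf4 and Spdef, and the other neighbours in that order did not. In Pea3 TKO the order of the means was the same and no neighbours overlapped, with Elf3 at 139.8 CPM per kb, Ehf at 43.4, Elf1 at 22.8, Elf2 at 7.34, Elf5 at 4.40, Elf4 at 0.605 and Spdef at 0.325.

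The members also shifted against each other. Per kb, Elf3 was at 3.61, 2.73 and 2.63 times the level of Elf1 in Control and at 6.10, 6.84 and 5.56 times in Pea3 TKO. The ratio of Ehf to its neighbour Elf5 was 6.41, 5.23 and 6.51 in Control and 10.9, 11.8 and 7.74 in Pea3 TKO. Elf3 was at 2.75, 2.84 and 1.43 times Ehf in Control and at 3.16, 3.50 and 3.02 times in Pea3 TKO, with Control 3 lowest. None of these 3 ratios overlapped between groups. Each had an exact two-sided permutation p of 0.1, the smallest that 3 against 3 libraries allow, or 0.106 adjusted over the 18 ratios computed.

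**Figure D2:**
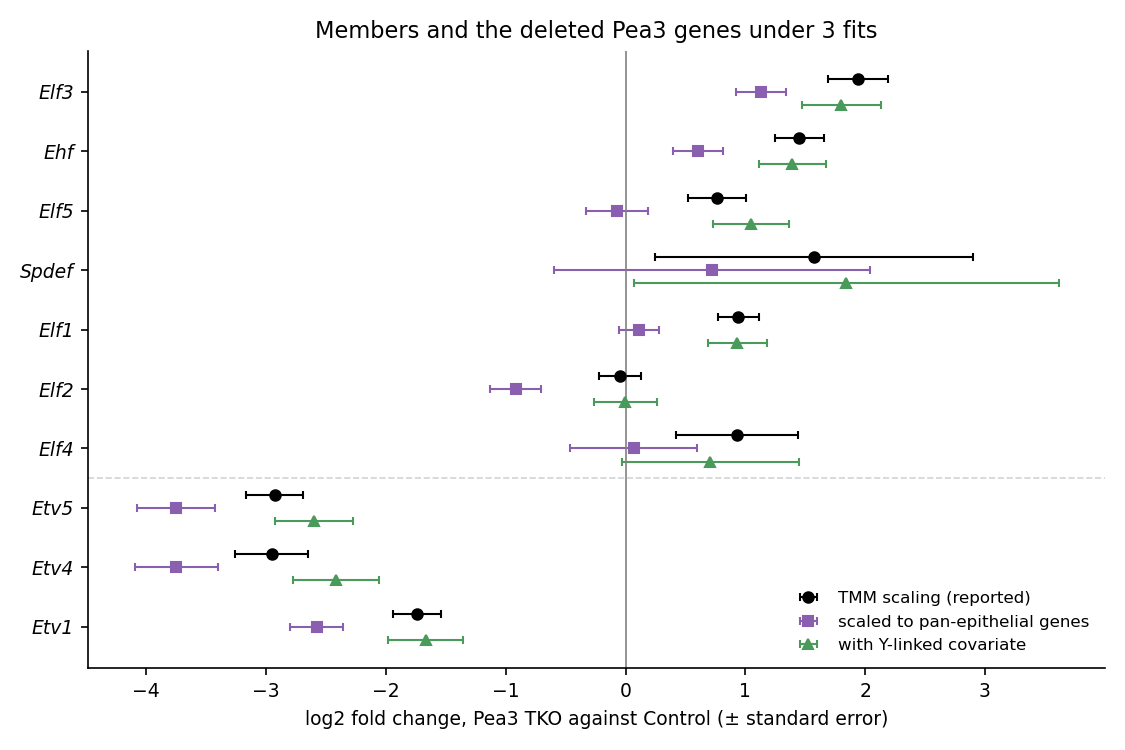
Log2 fold change of each member and of the 3 deleted Pea3 genes, Pea3 TKO against Control, with bars of ± 1 standard error, under TMM scaling (black circles), scaling to pan-epithelial genes (purple squares) and with a Y-linked covariate (green triangles). Elf3 and Ehf lie above 0 in all 3 fits, and Elf5 moves from 0.76 to −0.07 when scaled to pan-epithelial genes.

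Since epithelial markers were higher in Pea3 TKO, the members were also set against them. Per 1000 CPM of pan-epithelial markers, Elf3 was at 27.2 ± 10.6 CPM in Control and 76.8 ± 5.25 in Pea3 TKO, and Ehf at 30.2 ± 9.08 and 59.9 ± 4.04 (n = 3 each). The groups did not overlap for either gene, nor for Elf1 at 27.0 ± 5.43 and 38.0 ± 2.76, whereas Elf5 overlapped at 5.19 ± 1.05 and 6.42 ± 1.51. In that sum Epcam weighs most, at 1408 ± 88.2 CPM in Control and 1256 ± 73.4 in Pea3 TKO. Size factors were also taken from the geometric mean of the same markers, a different measure that weighs each marker alike. They lowered the median log2 fold change of all genes to −0.83. Elf3 (1.13, adjusted p = 0.000976) and Ehf (0.61, adjusted p = 0.0234) still passed as higher. On that scale Elf1 was at 0.11 (adjusted p = 0.562), Elf5 at −0.07 (adjusted p = 0.825), and Elf2 fell by 0.92 on the log2 scale (adjusted p = 0.00339).
With Y-linked RNA as a covariate, Elf3 (1.80, adjusted p = 0.0145) and Ehf (1.39, adjusted p = 0.0216) passed, and Elf1 (0.93, adjusted p = 0.0592) and Elf5 (1.05, adjusted p = 0.0885) did not, at log2 fold changes no smaller than 0.93.

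**Figure D3:**
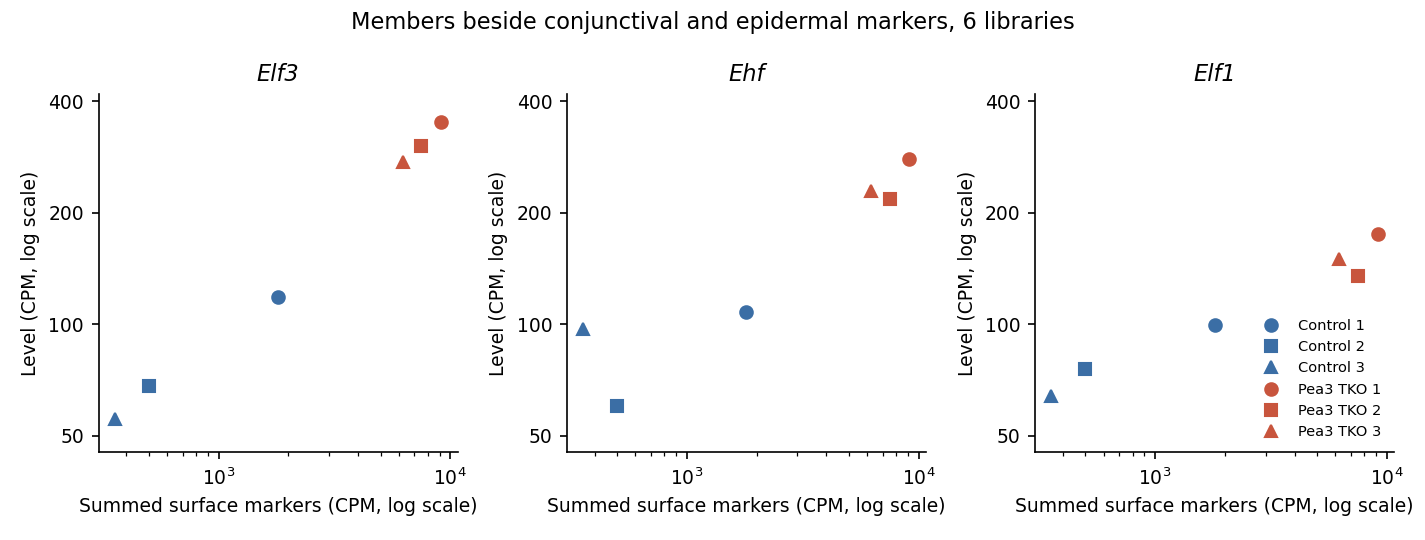
CPM of Elf3, Ehf and Elf1 against the summed CPM of surface epithelium markers in each of 6 libraries, both axes on a log scale, Control in blue and Pea3 TKO in red. Control 1, with 1806 CPM of surface markers, has the highest Elf3, Ehf and Elf1 of the Control libraries.

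Within groups, Elf3 kept the order of the summed surface markers and the other members that passed did not follow it fully. An order of 3 libraries per group is weak ground, and not every marker kept it. In Pea3 TKO 1, 2 and 3, Krt15, the highest of them, was at 4357, 3462 and 2212 CPM. Krt14 ran the other way, at 433, 651 and 746 CPM. Elf3 put the 6 libraries in the same order as the summed surface markers, from Control 3 to Control 2 and Control 1 and from Pea3 TKO 3 to Pea3 TKO 2 and Pea3 TKO 1. Ehf and Elf5 did not follow that order, both being lowest in Control 2 and in Pea3 TKO 2, and Elf1 followed it in Control but was lowest in Pea3 TKO 2. The markers differed more between groups than the members did, so that per 1000 CPM of surface markers Elf3 was at 65.4, 136 and 155 CPM in Control and at 38.4, 40.5 and 44.1 in Pea3 TKO. The part of surface cells in the higher Elf3 and Ehf was not tested.

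As a fraction of the ETS family the members went from a minor to the major part. Over 25 ETS genes in the tables, the summed level was 461 ± 27.9 CPM per kb in Control and 339 ± 8.58 in Pea3 TKO. The 7 members held 20.6%, 14.8% and 13.1% of it in Control and 71.3%, 62.0% and 59.7% in Pea3 TKO, a difference of 48.2 percentage points. The Pea3 branch went from 66.9 ± 3.77% to 12.1 ± 4.31%, which by itself raises the share of every other branch. ESE genes and Spdef went from 11.9 ± 3.67% to 55.3 ± 5.35%, the ELF genes from 4.29 ± 0.449% to 9.03 ± 1.09% and the other ETS genes from 16.9 ± 0.786% to 23.5 ± 1.92% (n = 3 each). No share overlapped between groups (exact two-sided permutation p = 0.1, the smallest possible). Elf3 per Etv5, both per kb, was at 0.146 ± 0.0733 in Control and 4.64 ± 2.39 in Pea3 TKO. Etv5 had the highest level per kb of the ETS genes in every Control library, and Elf3 in every Pea3 TKO library.

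**Figure D4:**
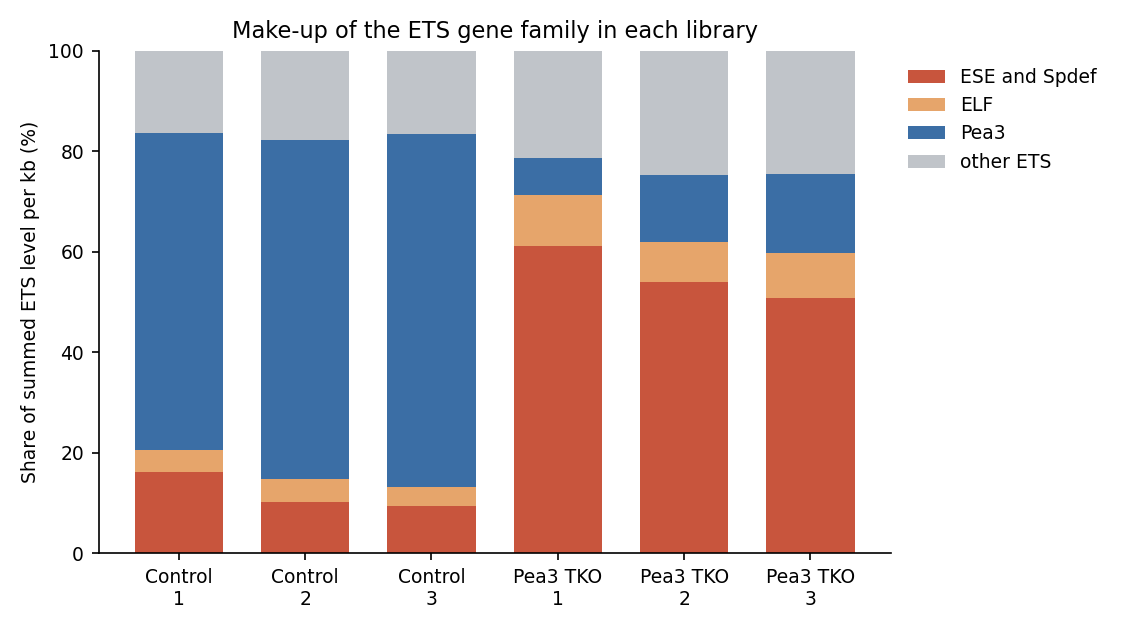
Share of the summed ETS level per kb, in percent, held by each branch in each library. ESE genes and Spdef (red) hold 9.32% to 16.1% in Control and 50.7% to 61.2% in Pea3 TKO, and the Pea3 branch (blue) shrinks.

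Of the other ETS genes, 9 of the 15 in the tables were tested, and 3 rose, 1 fell and 5 did not pass. That was 44.4% passing, beside 25.0% of all genes tested, with a median log2 fold change of 0.17, beside 0.01. Ets1, known from lymphoid and endothelial cells, went from 14.6 ± 3.09 to 36.0 ± 9.78 CPM (log2 fold change 1.31, adjusted p = 0.00571). Endothelial markers summed to at most 4.12 CPM in Control and 7.76 CPM in Pea3 TKO. Tie1 and Emcn were at 0 in all 6 libraries. Kdr was at 0 CPM in Control and at 1.40, 2.38 and 0 in Pea3 TKO, and Tek reached 3.44 in Control 1 and 4.90 in Pea3 TKO 2. The cells that hold the Ets1 RNA were not tested. Ets2 (0.61, adjusted p = 0.0251) and the repressor Etv3 (0.84, adjusted p = 0.0315) also rose. Elk3, a ternary complex factor, fell from 80.2 ± 5.55 to 48.9 ± 5.44 CPM (−0.71, adjusted p = 0.00588).

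Of 22 other regulators of epithelial differentiation, 20 were tested, and 7 rose, 2 fell and 11 did not pass. That was 45% passing, beside 25.0% of all genes tested, with a median log2 fold change of 0.40, beside 0.01. Foxq1, Zfp750 and Grhl3 rose, and like Elf3 each was highest in Control 1 among the Control libraries. Foxq1 was at 17.8, 3.30 and 3.64 CPM in Control and at 153, 113 and 83.7 in Pea3 TKO (log2 fold change 3.80, adjusted p = 0.00172). Zfp750, which promotes terminal differentiation of the epidermis, went from 13.3 ± 10.2 to 93.7 ± 5.89 CPM (2.81, adjusted p = 0.00158), and Grhl3, needed for the skin barrier, from 49.1 ± 29.7 to 182 ± 29.5 CPM (1.89, adjusted p = 0.00417).
Pax6, the eye master regulator, was at 240.5, 206 and 184 CPM in Control and at 486, 439 and 427 in Pea3 TKO (1.10, adjusted p = 0.000502). Tfap2b fell from 203 ± 4.13 to 96.6 ± 19.1 CPM (−1.07, adjusted p = 0.00106). The basal cell factor Trp63 had a log2 fold change of −0.04 and Grhl2 one of 0.19, and neither passed.

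Most genes on a list of targets of ESE factors, drawn up from general knowledge, were at 0 or did not pass the filter on low counts. Of 22 listed, 10 were at 0 in all libraries and 7 were tested, of which 4 rose and 1 fell. That was 71.4% passing, beside 25.0% of all genes tested, with a median log2 fold change of 1.08, beside 0.01. Krt12 and Sprr1a got through the filter on low counts only by their counts in Pea3 TKO. Their rise, and with it the share and the median of this short list, is therefore partly set by the filter. Cldn7, a tight junction protein, went from 103 ± 25.0 to 219 ± 34.3 CPM (1.08, adjusted p = 0.00286). The keratins Krt12 and Krt4 also stand in the cornea and surface marker lists. Krt12 had 0, 1 and 0 counts in Control and 41, 72 and 96 in Pea3 TKO, and Krt4 was at 5.24, 0.748 and 0.455 CPM in Control and 47.6, 17.1 and 18.7 in Pea3 TKO. The cornified envelope gene Sprr1a was at 0.620, 0.187 and 0 CPM in Control and at 12.6, 6.99 and 6.99 in Pea3 TKO.

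Of 16 genes on a list drawn up for Spdef, not all of them particular to goblet cells, 5 were tested and 2 rose. That was 40% passing, beside 25.0% of all genes tested, with a median log2 fold change of 1.48, beside 0.01. Agr2, a disulfide isomerase of the secretory pathway, went from 8.17 ± 2.93 to 28.0 ± 8.21 CPM (1.78, adjusted p = 0.00431), and Clca2 from 1.33 ± 0.784 to 11.4 ± 6.71 CPM (3.08, adjusted p = 0.00680). Of the goblet cell genes, Muc5b, Muc2, Tff1, Tff3 and Ern2 were at 0 in all libraries, and Clca1 had at most 1 count in any library.

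The genes whose pattern over the 6 libraries was most like that of each member were found by the root mean square difference of log2(CPM + 0.5) centred by gene, over 12582 genes with a mean of at least 1 CPM. For Elf3 these were Il10rb (0.0705), Clic6 (0.0934) and the suprabasal keratin Krt1 (0.0999). For Ehf they were Tcea3 (0.113), Capn5 (0.132) and Fmn1 (0.151), for Elf5 Insr (0.0928), Krcc1 (0.1001) and Hps6 (0.113), and for Elf1 they included Slc9a3r1 (0.0612) and Wdr45 (0.0743). Elf2 was nearest to Rps29 (0.0223), 1700066M21Rik (0.0448) and Asxl1 (0.0618), and Elf4 to Laptm4a (0.0601), Pcbd2 (0.0705) and Exoc4 (0.0756). Among the members themselves the closest pair was Elf1 and Elf4 at 0.232, and Elf3 and Ehf were at 0.418.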

How the data were processed

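The authors deposited raw counts of reads per gene symbol, 1 table per library, without normalization. The submitters' processing notes name bcl2fastq 2.17, STAR 2.5.2b, featureCounts 1.5.0-p3, DESeq and mm10. The strand setting is not given in the sources used here, and the labels name both the Nugen Ovation V2 system and a poly-A TruSeq workflow. Amplified reads are not independent molecules. The 95% intervals come from the fit over libraries and reflect the spread between libraries, which may be technical.

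Genes were kept by filterByExpr of edgeR 4.0.16 (R 4.3.3, minimum count 10), scaled by TMM and tested by its quasi-likelihood test on condition alone, with p-values adjusted by Benjamini-Hochberg over all genes tested. CPM are TMM-scaled, and the standard error of a fold change was derived from its F statistic (size of the log2 change over the root of F). Exonic lengths and positions came from GENCODE M21 (GRCm38), which matched 21742 of 23420 symbols and 7 of 7 members. Ratios and shares were compared by exact two-sided permutation. The fit was tested on simulated counts.

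The members and gene lists were chosen with earlier results of these data known. Named genes were all members, the deleted genes, other ETS genes that passed, up to 5 passing genes with the smallest p of each list, and the 3 genes most like each member. The nearest genes of Spdef, at under 1 CPM, are left out. Some genes under this rule are not reported here. Alternatives were other size factors, DESeq2 1.42.0, voom of limma 3.58.1, other filters, a replicate block, a Y-linked covariate and leaving out each library.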

Additional observations from a re-analysis of the deposited data

How the results depend on the processing

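Elf3 and Ehf kept their direction and passed under all 15 alternatives run. With size factors from pan-epithelial genes, 8670 genes were called (638 higher and 8032 lower), with 14 epithelial regulators and 4 Spdef-list genes. Elf1 (0.11) and Elf5 (−0.070, opposite in sign) no longer passed there, whereas Elf2 did (−0.92). With the Y-linked covariate, edgeR called 854 genes, 2 members, 1 other ETS gene, 4 epithelial regulators and 3 ESE targets. It called 0 Spdef-list genes (2 at an unadjusted p under 0.05), and Elf1 (0.93) and Elf5 (1.05) no longer passed. The first scaling divides by markers of which 5 of 6 were higher in Pea3 TKO. It therefore moved all genes down together, to a median log2 fold change of −0.83. Why calls were lost with the Y-linked covariate was not tested, though that covariate takes up 1 degree of freedom. Leaving out 1 library gave 1948 to 3344 genes, 3 to 4 members and 2 to 4 other ETS genes, with Elf5 at 0.61 to 0.94 and Elf2 at −0.18 to 0.09, above 0 without Control 3 (0.03) and without Pea3 TKO 2 (0.094). The difference in ETS share was 39.1 percentage points without the correction for length and 44.7 to 50.5 with 1 library left out.

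Replicate numbers 1 to 3 recur in the labels of each group. With the replicate block 3191 genes and 4 members were called, with Elf3 at 2.01, Ehf at 1.49, Elf1 at 0.96 and Elf5 at 0.75, and it changed no call of a member. Deviations from group means correlated over 0.1 in 1 of 3 same-numbered pairs (mean r 0.0287), so the numbers were not taken to pair the libraries. Spdef and Elf4, which had at most 16 and 74 counts in a library, have the widest intervals of the members.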
